A study of Mus musculus with 92 samples.

Results

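MHC class II molecules present peptides to CD4+ T cells, and 7 genes of that pathway are described here across 92 RNA sequencing libraries of mouse marrow cells, cultured macrophages and cells from brain. The genes were chosen by name: Ciita, H2-Aa, H2-Ab1, H2-Eb1, Cd74, H2-DMa and H2-DMb1, 7 of the 29956 named genes in the table. Ciita encodes the transactivator that switches on class II transcription, which it does by joining factors already bound at class II promoters. H2-Aa and H2-Ab1 encode the alpha and beta chains of the I-A molecule, and H2-Eb1 the beta chain of I-E. Cd74 encodes the invariant chain, which occupies the peptide groove during assembly, and H2-DMa and H2-DMb1 encode the chains of H2-DM, which helps exchange the remnant of the invariant chain for other peptides. Dendritic cells and B cells carry class II without stimulation, whereas macrophages and microglia raise it after interferon gamma, which acts through JAK kinases on Ciita.

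The cells came from mice of the FVB strain. BM progenitors were lineage-depleted bone marrow cells and BM monocytes were taken with a monocyte isolation kit, both from WT mice. BMD (bone marrow derived) macrophages were grown from WT marrow for 7 days with M-CSF, and each of these groups has 3 libraries. ER-Hoxb8 cells are marrow progenitors held immature by an estrogen-dependent Hoxb8 protein and grown with beta-estradiol and GM-CSF. Those in culture, of genotype Cas9 het by their labels, came from 3 independently made lines and were sequenced as progenitors, after 4 days and as macrophages after 7 days of differentiation (3 libraries each). Microglia-like cells (MLCs) are donor cells that were injected into the brains of Csf1r-/- newborns, which lack microglia, and later sorted back out by CD45, CD11B and, for some, GFP. The MLCs comprised 6 libraries from BMD donors and 6 from ER-Hoxb8 donors, beside 9 libraries of microglia from uninjected WT mice. The labels give the ER-Hoxb8 MLCs the genotype WT, so that ER-Hoxb8 cells in brain and in culture differ in donor genotype as well. The ER-Hoxb8 cells in culture also differ in genotype from the WT marrow cells and BMD macrophages. For the Adar experiments, Cas9 het ER-Hoxb8 cells received a non-targeting control (NTC) guide or 1 of 2 guides against Adar (sgRNA #1 and sgRNA #2), and the edited cells were sorted pools, not clones. There were 3 progenitor and 3 macrophage libraries for NTC, 3 and 3 for sgRNA #1, and 3 and 5 for sgRNA #2. In a further experiment, NTC and Adar KO (sgRNA #1) macrophages received baricitinib, a JAK1 and JAK2 inhibitor, through 7 days of differentiation at 5 doses labelled 0, 0.0006, 0.016, 0.4 and 10 uM. These 33 libraries were sequenced at another centre, with 3 or 4 in each of the 10 groups. The protocol text gives 0.00064 and 0.16 uM where the sample titles give 0.0006 and 0.016 uM. The titles are used here, and which is right was not settled.

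Values are log2 CPM, the counts of a gene relative to the total of its library, in counts per M (mega), as the authors deposited them. Estimated depth ran from 6.2 to 52.9 M counts. The lowest possible value differs among 6 groups of libraries that were normalized together, from -4.34 to -2.78, so levels are compared only within such a group. Of the 7 genes, Cd74 was above 3 counts in 92 of 92 libraries, H2-DMa in 92 and H2-DMb1 in 91. Ciita was above 3 counts in 60, H2-Aa in 54, H2-Ab1 in 48 and H2-Eb1 in 8. The number that passed the filter on low values (above 1 CPM in at least 3 libraries of the fit) was 6 among marrow cells and early ER-Hoxb8 cells, and 6 among macrophages, MLCs and microglia. It was 4 in the sgRNA #2 libraries, 3 with sgRNA #1 and NTC, and 3 with baricitinib. A gene that passed because it is high in 1 group was bound to differ, so the counts of genes past the test are descriptions. A difference was called when its p, adjusted over all genes tested by the Benjamini-Hochberg method, was below 0.05. H2-DMb1 and its neighbour H2-DMb2 are near-identical in sequence, so how reads were shared between them is uncertain. FVB mice carry class II alleles other than those of the reference strain, and the effect of that on the values was not measured.

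Some libraries stood apart. ER-Hoxb8 progenitor replicate 3 had a summed level of 6 neutrophil markers of 2765 CPM, against 48.4 and 42.1 in the other replicates. BMD macrophage replicate 3, whose column name is wBM_1 where the others are Mac1 and Mac3, had summed monocyte markers of 1133 CPM, against 56.3 and 38.8, and progenitor markers of 162 CPM, against 18.8 and 2.88. Microglia replicate 8 had 9592 genes above 1 CPM, H2-DMb1 at 0 counts and a summed level of 8 markers of other brain cells of 667 CPM, against 52.4 to 103 in the other microglia. The column names of microglia replicates 8 and 9 carry the term YSWT. ER-Hoxb8 MLC replicates 3 and 6 had summed levels of 4 T cell markers of 147 and 181 CPM, against 2.15 to 28.2 in the other 4. Replicate 6 also had the lowest summed microglia markers of the ER-Hoxb8 MLCs (827 CPM), the highest monocyte markers (6563 CPM) and the highest H2-Ab1 (12.93 log2 CPM). The column names of ER-Hoxb8 MLC replicates 1 to 3 carry the term GFPHox, and those of replicates 4 to 6 WTHox. The latter also end in Lo, a term that the sample titles do not explain. BMD MLC replicates 1 and 2 had summed microglia markers of 5034 and 7942 CPM, against 14273 to 16736 in the other BMD MLCs. Their neutrophil markers were 3674 and 2266 CPM, against 15344 to 19453, and their B cell markers 19.5 and 30.5 CPM, against 79.3 to 95.0. NTC macrophage replicate 2 had a lowest value of its own and was left out of the main tests. Among macrophages labelled Adar KO at 0.4 uM, replicate 2 had the interferon-stimulated gene Isg15 at 10.58 log2 CPM, against 1.80 and 3.37 in the others.

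Class II promoters carry an X box and a Y box at a fixed spacing, bound by the RFX and NF-Y factors with which the Ciita protein works. The windows from 250 bases before to 50 bases after the start of 3 members are shown because a spaced pair of letter groups is common to them: H2-Aa on the minus strand of GRCm38.p6 at chr17:34287774-34288073, H2-Eb1 on the plus strand at chr17:34305617-34305916, and H2-DMb1 on the plus strand at chr17:34152941-34153240. Sequences are from RefSeq, written 5′ to 3′ along each gene, and capitals mark GNAAC followed by ATTGG, letters chosen with these sequences in view and searched on both strands.
H2-Aa: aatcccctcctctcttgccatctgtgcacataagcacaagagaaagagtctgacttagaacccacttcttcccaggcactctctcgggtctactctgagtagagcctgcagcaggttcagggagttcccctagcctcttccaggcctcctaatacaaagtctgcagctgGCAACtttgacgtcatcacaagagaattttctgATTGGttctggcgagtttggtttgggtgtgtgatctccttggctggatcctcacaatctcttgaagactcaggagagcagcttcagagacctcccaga
H2-Eb1: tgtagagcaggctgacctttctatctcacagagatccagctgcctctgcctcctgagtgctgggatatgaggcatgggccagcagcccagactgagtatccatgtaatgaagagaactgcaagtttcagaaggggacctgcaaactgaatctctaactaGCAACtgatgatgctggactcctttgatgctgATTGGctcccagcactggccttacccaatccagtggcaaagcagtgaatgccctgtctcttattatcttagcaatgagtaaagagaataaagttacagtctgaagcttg
H2-DMb1: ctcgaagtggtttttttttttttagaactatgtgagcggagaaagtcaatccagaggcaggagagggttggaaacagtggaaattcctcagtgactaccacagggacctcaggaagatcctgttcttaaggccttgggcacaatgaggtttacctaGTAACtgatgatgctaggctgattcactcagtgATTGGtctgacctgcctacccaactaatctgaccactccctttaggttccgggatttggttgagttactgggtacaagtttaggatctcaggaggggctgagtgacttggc
The starts of the letter groups lay 33 bases apart in H2-Aa, 32 in H2-Eb1 and 33 in H2-DMb1. Of the other members, H2-DMa did not hold the pair in either of its 2 windows, and the table has no window for H2-Ab1 and Ciita. Cd74 was not among the genes looked up. Among class II genes outside the 7, H2-Oa (33 bases), H2-Ob (30) and H2-Eb2 (32) held the pair within the searched spacing of 30 to 36, and the window of H2-DMb2 did not. Of all 32851 windows in the table, 409 (1.25%) held such a pair on either strand, and 37.4% held ATTGG alone. A match describes the letters only and is no evidence of binding. H2-Eb1, whose window holds the pair in the reference sequence, had the lowest detection of the 7 genes. The cells are of the FVB strain, and the FVB sequence of these windows was not looked at.

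Marrow cells and ER-Hoxb8 progenitors were set side by side to see which class II genes the conditionally immortalized cells carry before they differentiate. ER-Hoxb8 progenitors were far below BM progenitors for Ciita and the I-A chains, while H2-DMa and H2-DMb1 did not pass the test. Ciita stood at 1.28, 2.14 and 2.17 log2 CPM in BM progenitors, 2.70, -0.16 and 0.79 in BM monocytes, and -4.34, -1.38 and -2.04 in ER-Hoxb8 progenitors. All 3 ER-Hoxb8 libraries lay below every marrow library. H2-Aa stood at 5.28, 6.69 and 6.23 in BM progenitors, at 6.98, 5.75 and 5.03 in BM monocytes and at -3.21, -2.55 and -2.01 in ER-Hoxb8 progenitors. H2-Ab1 stood at 5.65, 7.21 and 6.56 in BM progenitors, at 6.73, 6.05 and 4.85 in BM monocytes and at -4.34, -4.34 and -4.29 in ER-Hoxb8 progenitors, where it was at or below 3 counts in each library. For both chains the marrow groups overlapped and the ER-Hoxb8 progenitors lay apart from them. Of the 6 members tested, 3 were lower in ER-Hoxb8 than in BM progenitors and 0 higher, where limma called 25.6% of 12134 genes. The median log2FC (log2 fold change) of the 6 members was -3.99, beside -0.08 over all genes tested. The 3 that were lower, Ciita, H2-Aa and H2-Ab1, passed the filter on low values through marrow libraries alone. They were thus bound to differ, and the count is a description. Ciita was lower (log2FC -4.45, standard error 0.86, adjusted p = 0.00279) and so was H2-Aa (log2FC -8.65, standard error 0.55, adjusted p = 8.99e-07). With Ciita at 0 counts in 1 ER-Hoxb8 library and H2-Aa at 2.0, 5.9 and 8.4 counts, both sizes depend on the scale. Ciita was -1.98 on log2(CPM + 1), -2.75 with quantile normalization and -5.32 with array weights, and H2-Aa was -5.92, -7.47 and -9.05, called in each. H2-Ab1 was at least 1084-fold lower, taking 3 counts per library as the floor (adjusted p = 2.77e-07).

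Cd74 split the ER-Hoxb8 progenitor lines. It stood at 8.57, 10.15 and 9.52 log2 CPM in BM progenitors, at 10.33, 9.38 and 8.52 in BM monocytes and at 7.91, 7.45 and 2.27 in ER-Hoxb8 progenitors. Replicate 3, the library with the high neutrophil markers, was the low one, and no ER-Hoxb8 progenitor library reached the marrow range. Against BM progenitors the log2FC was -3.54 (standard error 1.26, adjusted p = 0.0596), so it was not called. Without replicate 3 it was -1.73 (adjusted p = 0.101), and it was called without replicate 1 (-4.55) and without replicate 2 (-4.32). It was also called with quantile normalization (-3.79, adjusted p = 0.0313), a replicate block (adjusted p = 0.0402) and array weights (-2.90, adjusted p = 0.0477). H2-DMa stood at 2.13, 2.46 and 2.50 in BM progenitors and at 2.44, 3.12 and -0.17 in ER-Hoxb8 progenitors, again with replicate 3 lowest. H2-DMb1 stood at 5.47, 5.42 and 5.27 in BM progenitors and at 5.32, 6.69 and 4.30 in ER-Hoxb8 progenitors, and the groups overlapped.

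Marker genes of other blood cells moved along the same comparison. B cell markers were lower in ER-Hoxb8 than in BM progenitors for 5 of 5 genes, T cell markers for 4 of 4 and neutrophil markers for 6 of 6, and dendritic cell markers for 5 of 7. B cell markers summed to 128, 849 and 603 CPM in BM progenitors, with Cd79a the most abundant, to 56.8, 71.2 and 75.9 in BM monocytes, and to 1.54, 19.4 and 2.26 in ER-Hoxb8 progenitors. Dendritic cell markers summed to 102, 120 and 127 CPM in BM progenitors, to 220, 204 and 124 in BM monocytes and to 367, 314 and 22.5 in ER-Hoxb8 progenitors. BM progenitors held the most B cell marker RNA, and ER-Hoxb8 progenitor replicate 3 the least dendritic marker RNA. Plasmacytoid dendritic cell markers summed to 133, 266 and 246 CPM in BM progenitors. They summed to 42.4, 56.6 and 53.1 CPM in BM monocytes and to 119, 81.1 and 47.2 in ER-Hoxb8 progenitors. In these bulk samples fewer cells of a type and less RNA per cell cannot be told apart. The part of these marker genes in the class II difference was not tested.

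Between the marrow groups, H2-DMb1 was the member past the test. H2-DMb1 stood at 7.26, 7.07 and 7.30 log2 CPM in BM monocytes, against 5.47, 5.42 and 5.27 in BM progenitors. Every monocyte library lay above every progenitor library. It was 1 of 6 members tested, where 13.7% of 12134 genes were called, so that a share like that is not a result about the members (log2FC 1.82, standard error 0.48, adjusted p = 0.0291). The median of the members was -0.07, beside -0.09 over all genes. The call was lost when any 1 of the 6 libraries, BM progenitor replicates 1 to 3 or BM monocyte replicates 1 to 3, was left out, with values from 1.76 to 1.89 and adjusted p from 0.0751 to 0.0967. H2-DMa stood at 4.09, 4.69 and 4.35 in BM monocytes, above each of the BM progenitor values, with a log2FC of 2.01 (adjusted p = 0.128). It was called with only the compared groups in the fit, with quantile normalization (2.31) and with array weights (1.96).

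After 4 days of differentiation the I-A chains were still near the floor in ER-Hoxb8 cells, while Cd74 and the H2-DM genes were measurable. H2-Ab1 stood at -2.97, -2.08 and -1.86 log2 CPM at day 4, against -4.34, -4.34 and -4.29 in progenitors, and H2-Aa at -2.33, -2.50 and -2.35. All H2-Ab1 libraries of day 4 lay above those of the progenitors, at no more than 8 counts. Cd74 stood at 4.88, 7.67 and 5.74 at day 4, H2-DMa at 0.35, 2.92 and 2.91 and H2-DMb1 at 5.77, 6.79 and 5.91, and each of these overlapped with the progenitors. By replicate number, H2-DMb1 was higher at day 4 in each of the 3, where the progenitors stood at 5.32, 6.69 and 4.30. With a replicate block its log2FC was 0.72 (adjusted p = 0.535), not called. Cd74 and H2-DMa differed in direction among the replicates. Limma called 0 of 6 members and 0 of 12134 genes, 0% in all, with 1135 genes at an unadjusted p below 0.05. H2-Ab1 was among those (log2FC 2.02, standard error 0.56, adjusted p = 0.497). Without ER-Hoxb8 progenitor replicate 2, limma called H2-DMb1 (1.35, adjusted p = 0.0340) and 1333 genes in all.

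**Figure D1:**
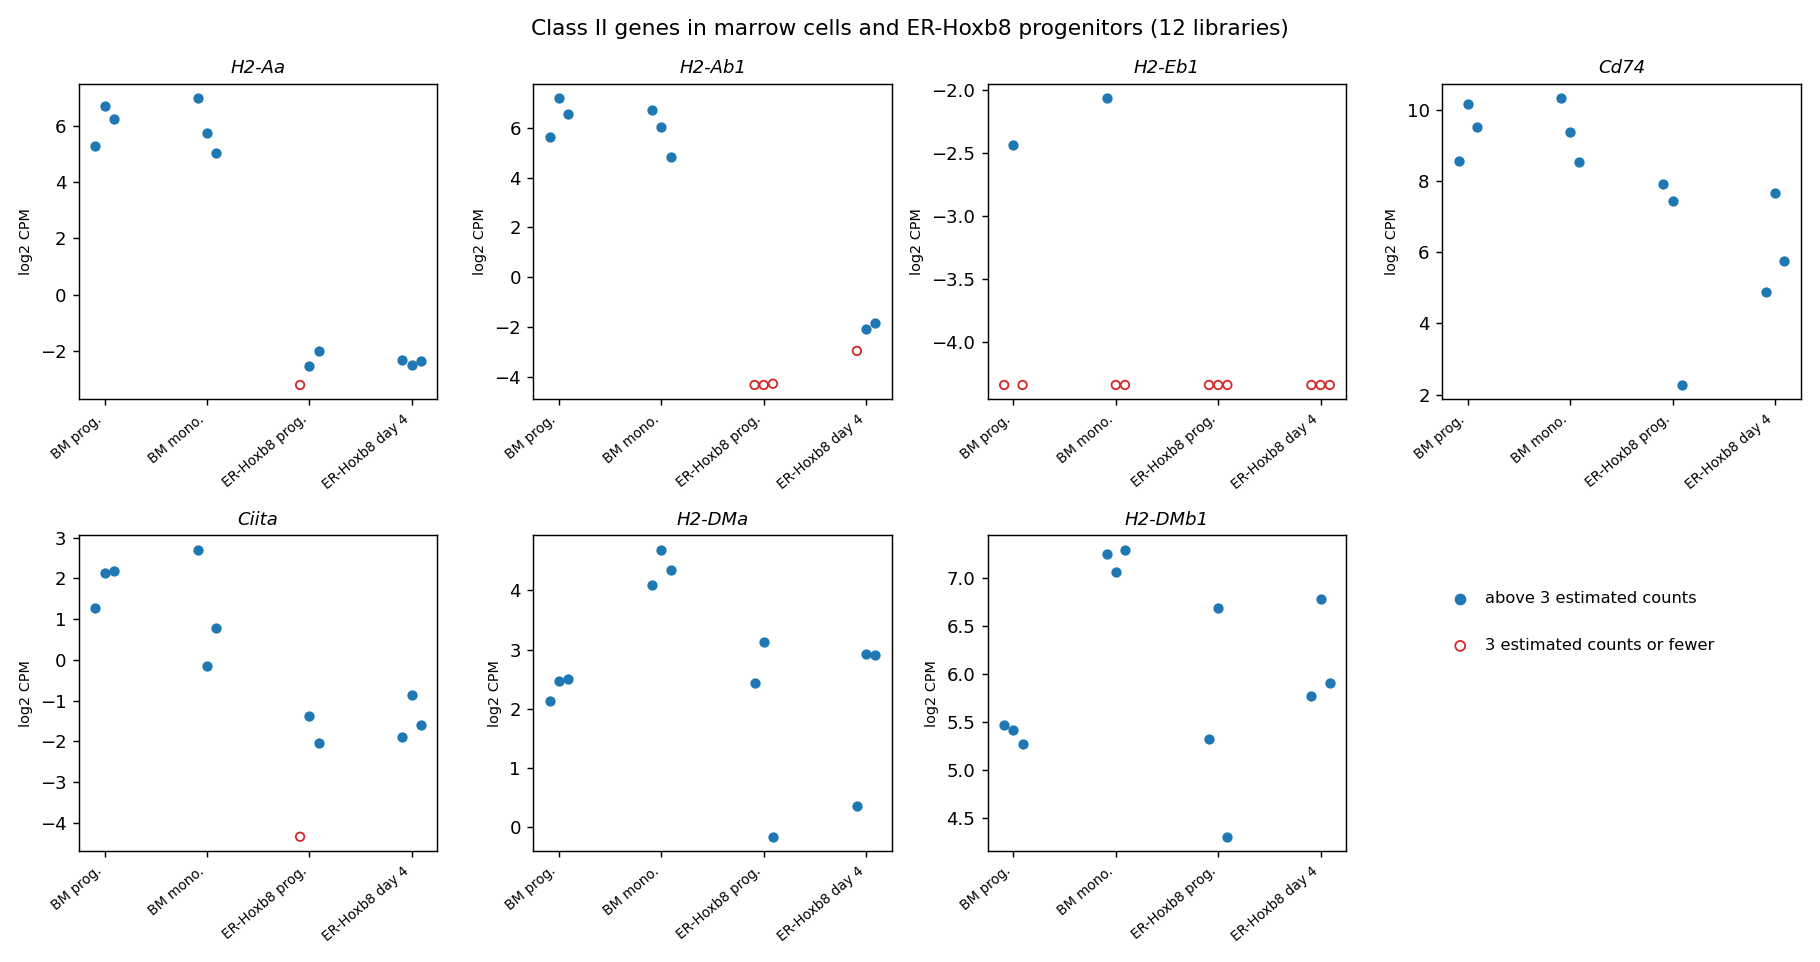
Values of the 7 genes in log2 CPM (vertical axis) in each library of BM progenitors, BM monocytes, ER-Hoxb8 progenitors and ER-Hoxb8 cells at day 4; open red points are at or below 3 counts. H2-Aa and H2-Ab1 are high in marrow and near the floor in ER-Hoxb8 cells, while H2-DMb1 stays above 4 log2 CPM in every library.

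Macrophages of the donor types, MLCs and microglia were compared to see how the genes differ by origin and after residence in the brain. Cultured ER-Hoxb8 macrophages had less I-A RNA than BMD macrophages. H2-Aa stood at 3.60, 4.20 and 3.64 log2 CPM in BMD macrophages and at -1.78, -1.17 and 0.50 in ER-Hoxb8 macrophages. H2-Ab1 stood at 2.98, 4.62 and 3.53 in the former and at -1.78, -3.62 and 0.02 in the latter. For both genes each ER-Hoxb8 library lay below each BMD library. Of 6 members tested 2 were lower and 0 higher, where 2.29% of 13511 genes were called, with a median of -1.15 beside -0.00 over all genes. H2-Aa (log2FC -4.63, standard error 0.63, adjusted p = 3.31e-05) and H2-Ab1 (log2FC -5.50, standard error 1.19, adjusted p = 0.00781) were lower. These sizes rest on few counts in ER-Hoxb8 macrophages and depend on the scale, and H2-Aa was -3.26 on log2(CPM + 1), still called. The H2-Ab1 call was lost without BMD macrophage replicate 2 (-5.05, adjusted p = 0.0509), without ER-Hoxb8 macrophage replicate 2 (-4.59, adjusted p = 0.0733) and on the log2(CPM + 1) scale (-3.41, adjusted p = 0.0683).

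The other members differed less between the cultured macrophages. Ciita stood at -0.68, 0.51 and -1.60 in BMD and at -2.49, -1.40 and -1.46 in ER-Hoxb8 macrophages, and Cd74 at 7.03, 7.55 and 6.14 and at 5.30, 6.29 and 5.80. The groups overlapped for both genes, and neither was called (adjusted p = 0.950 and 0.849), though Cd74 was with array weights (-1.07, adjusted p = 0.00934). H2-DMa stood at 2.05, 1.55 and 1.60 in BMD and at 2.18, 2.09 and 4.00 in ER-Hoxb8 macrophages, and H2-DMb1 at 5.64, 4.98 and 5.78 and at 5.75, 6.36 and 6.11. For H2-DMa every ER-Hoxb8 library lay above every BMD library, and for H2-DMb1 the groups overlapped, with log2FC of 1.02 and 0.61, neither called. Dendritic cell markers summed to 218, 221 and 19.6 CPM in BMD macrophages and to 142, 297 and 330 in ER-Hoxb8 macrophages. BMD macrophage replicate 3, the low one for these markers, had H2-Aa at 3.64. Without that library H2-Aa (-4.72) and H2-Ab1 (-5.59, adjusted p = 0.0270) were still called. The part of these markers in the class II values was not tested. Cd40, a co-stimulatory receptor, was lower in ER-Hoxb8 macrophages (log2FC -3.80).

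MLCs of both origins held far more RNA of Ciita, the I-A chains and Cd74 than the cultured macrophages of the same cell type (BMD or ER-Hoxb8). The switch gene Ciita ran from 2.03 to 3.44 log2 CPM in BMD MLCs (median 2.90), from 3.56 to 8.01 in ER-Hoxb8 MLCs (median 6.96) and from -2.33 to 1.53 in microglia (median 0.38). These 3 groups did not overlap, with ER-Hoxb8 MLCs highest and microglia lowest. H2-Aa ran from 7.63 to 9.62 in BMD MLCs (median 8.98), from 10.45 to 12.77 in ER-Hoxb8 MLCs (median 11.43) and from 3.75 to 6.16 in microglia (median 5.35). H2-Ab1 ran from 7.05 to 9.64 in BMD MLCs (median 9.10) and from -0.17 to 6.42 in microglia (median 5.89), and stood at 9.75, 10.44, 12.57, 10.64, 11.37 and 12.93 in ER-Hoxb8 MLC replicates 1 to 6. Both I-A chains followed the order of Ciita with no overlap among the 3 groups, and the lowest microglia value of H2-Ab1 was that of replicate 8.

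The genes that act after transcription of the chains followed in part. Cd74 ran from 11.07 to 12.39 in BMD MLCs (median 11.46), from 13.76 to 15.63 in ER-Hoxb8 MLCs (median 14.77) and from 4.66 to 9.09 in microglia (median 8.46). H2-DMa ran from 3.32 to 4.81 in BMD MLCs (median 4.04), from 3.12 to 5.04 in ER-Hoxb8 MLCs (median 4.18) and from -0.72 to 1.52 in microglia (median 0.69). H2-DMb1 ran from 6.44 to 7.32 in BMD MLCs (median 6.98), from 6.93 to 9.67 in ER-Hoxb8 MLCs (median 8.88) and from -3.62 to 6.21 in microglia (median 5.62). Cd74 separated all 3 groups, whereas H2-DMa and H2-DMb1 separated the microglia and overlapped between the MLC types. H2-Eb1 was above 3 counts in 2 of 6 BMD MLC libraries, 2 of 6 ER-Hoxb8 MLC libraries and 1 of 9 microglia libraries, with a highest value of 2.24 in ER-Hoxb8 MLC replicate 2, and was not tested.

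**Figure D2:**
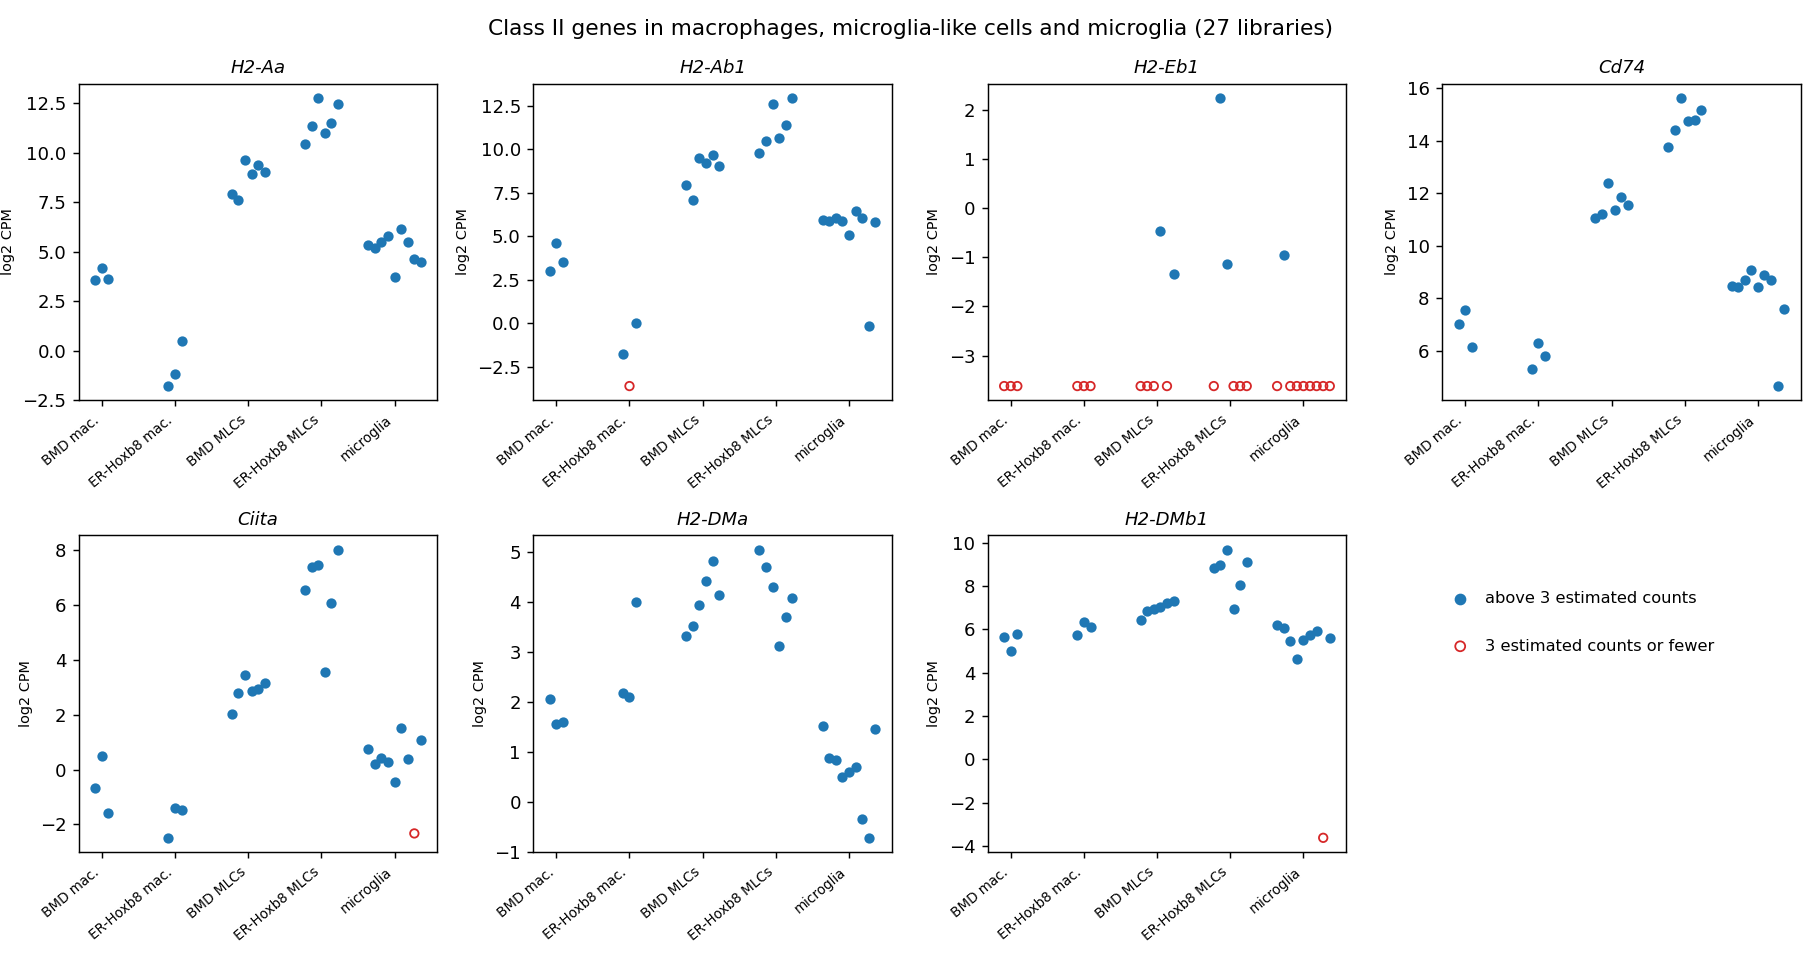
Values of the 7 genes in log2 CPM (vertical axis) in each library of BMD and ER-Hoxb8 macrophages, BMD and ER-Hoxb8 MLCs and microglia; open red points are at or below 3 counts. Ciita, H2-Aa, H2-Ab1 and Cd74 are highest in ER-Hoxb8 MLCs, followed by BMD MLCs, and H2-Eb1 lies near the floor in most libraries.

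Against BMD macrophages, BMD MLCs were higher for 5 of the 6 members tested, where 30.0% of 13511 genes were called. The median of the members was 4.07, beside 0.02 over all genes. Ciita was higher (log2FC 3.46, standard error 0.77, adjusted p = 0.00152), as were H2-Aa by 30.7-fold (log2FC 4.94, standard error 0.55, adjusted p = 2.79e-07) and H2-Ab1 by 32.1-fold (log2FC 5.01, standard error 1.03, adjusted p = 7.27e-04). Cd74 was 25.5-fold higher (log2FC 4.67, adjusted p = 4.78e-06) and H2-DMa 4.89-fold (log2FC 2.29, adjusted p = 0.00198). H2-DMb1 had a log2FC of 1.50 (adjusted p = 0.390), and was called with only the compared groups in the fit, with a replicate block (1.72) and with array weights. For all 6 genes the 6 MLC libraries lay above the 3 macrophage libraries, but the share of all genes that separate likewise was not computed. Without BMD macrophage replicate 3 the same 5 members were called and 2575 genes in all, in place of 4055.

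Against ER-Hoxb8 macrophages, ER-Hoxb8 MLCs were also higher for 5 of 6 members, where 33.8% of genes were called, with a median of 8.62 beside -0.10. Ciita was higher (log2FC 8.28, standard error 0.77, adjusted p = 9.33e-09), and Cd74 was 495-fold higher (log2FC 8.95, standard error 0.63, adjusted p = 4.04e-11). H2-Aa (log2FC 12.41, standard error 0.55, adjusted p = 3.30e-15) and H2-Ab1 (log2FC 13.08, standard error 1.03, adjusted p = 4.05e-10) were higher too. In ER-Hoxb8 macrophages Ciita was at 3.2 to 10.3 counts, H2-Aa at 6.8 to 37.7, and H2-Ab1 at 0 in replicate 2, so that these sizes depend on the offset of the log scale. On log2(CPM + 1) they were 6.24 for Ciita, 10.95 for H2-Aa and 10.88 for H2-Ab1, called in each. H2-DMa was 2.62-fold higher (log2FC 1.39, adjusted p = 0.0434) in groups that overlapped, with cultured values of 2.18, 2.09 and 4.00. That call was lost without ER-Hoxb8 macrophage replicate 1 (1.10) or 2 (1.06) and without ER-Hoxb8 MLC replicate 1 (1.21), 2 (1.28), 3 (1.36) or 6 (1.41). It was lost too with the WTHox libraries alone (0.87, adjusted p = 0.269), where the GFPHox libraries alone gave 1.92 (adjusted p = 0.0182), and without the libraries rich in T cell markers (1.38, adjusted p = 0.0710). It was lost with only the compared groups in the fit (adjusted p = 0.0984) and with no filter on low values (adjusted p = 0.0549). H2-DMb1 had a log2FC of 2.51 (adjusted p = 0.128) in groups that did not overlap. It was called with only the compared groups in the fit (adjusted p = 0.00684), on the log2(CPM + 1) scale (adjusted p = 0.0212), with a replicate block (2.73, adjusted p = 3.99e-05) and with array weights (2.74, adjusted p = 3.15e-05).

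The rise from culture to brain was larger in ER-Hoxb8 than in BMD cells for the switch, the I-A chains and the invariant chain. The test of that difference called 4 of 6 members, where 3.27% of 13511 genes were called, with a median of 4.55 beside -0.19. The rises differed by 7.47 for H2-Aa (standard error 0.77, adjusted p = 8.92e-07) and by 8.07 for H2-Ab1 (standard error 1.46, adjusted p = 0.00160), on the log2 scale. They differed by 4.82 for Ciita (standard error 1.10, adjusted p = 0.0114) and by 4.28 for Cd74 (standard error 0.89, adjusted p = 0.00537). With the GFPHox libraries alone Ciita gave 5.45 (adjusted p = 0.00104), and with the WTHox libraries alone 4.20 (adjusted p = 0.0528). H2-DMa gave -0.90 (adjusted p = 0.645) and H2-DMb1 1.01 (adjusted p = 0.868). Cultured ER-Hoxb8 macrophages began lower than BMD macrophages for the I-A chains (log2FC -4.63 for H2-Aa and -5.50 for H2-Ab1). Most of the difference for those genes thus lies in the starting level. Ciita (-1.19) and Cd74 (-1.11) began lower as well, though neither was called in culture. The labelled genotype of ER-Hoxb8 cells also differs between culture and brain, and its part was not tested. Without BMD macrophage replicate 3 the count over all genes was 252 in place of 442, without replicate 1 it was 280 and without ER-Hoxb8 macrophage replicate 3 it was 277.

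**Figure D3:**
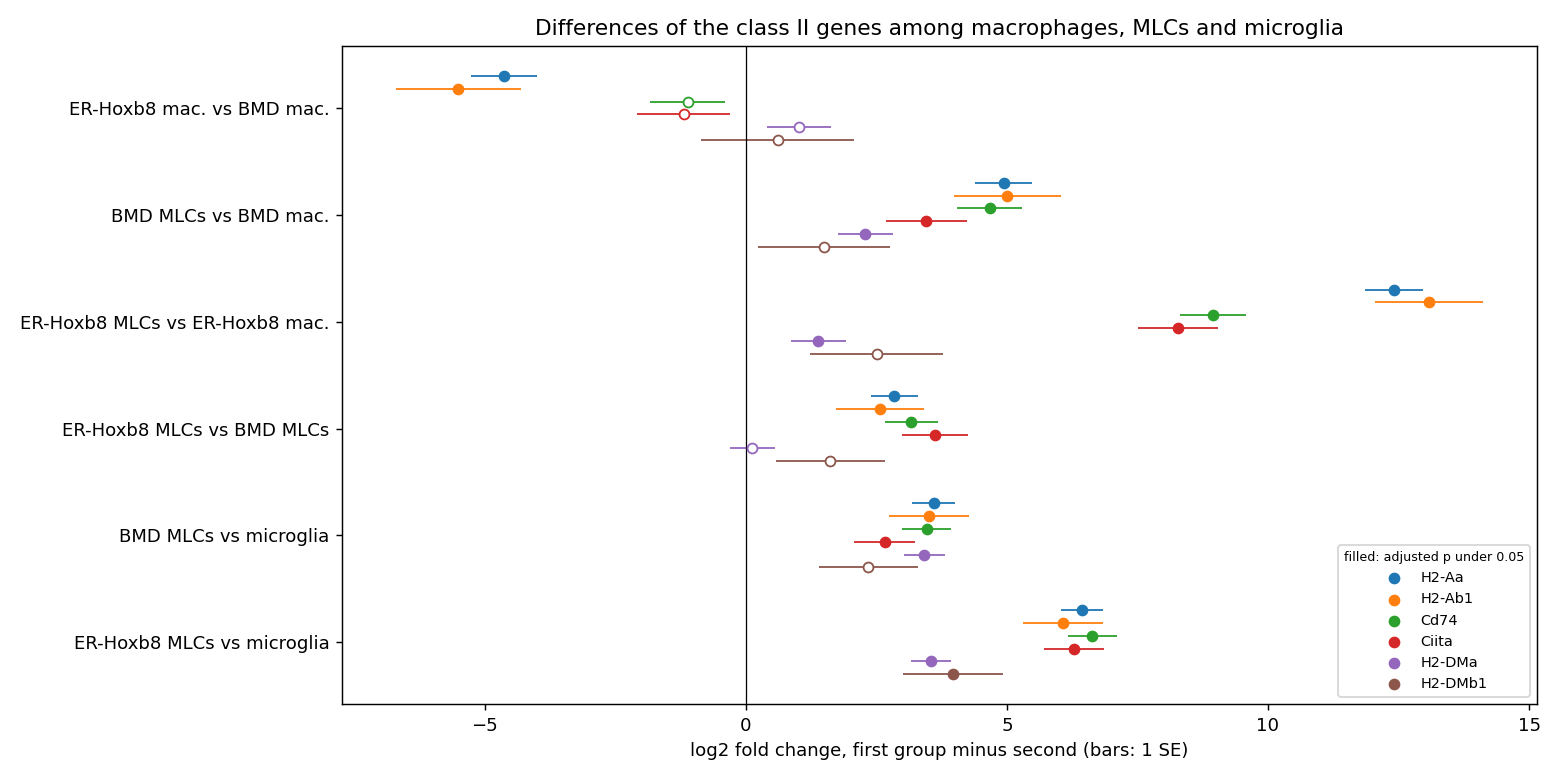
Log2 fold change with 1 standard error (horizontal axis) of 6 members in 6 comparisons among macrophages, MLCs and microglia; filled points have an adjusted p below 0.05. H2-Aa and H2-Ab1 differ most between ER-Hoxb8 MLCs and ER-Hoxb8 macrophages (12.41 and 13.08), and between the MLC types H2-DMa and H2-DMb1 are not called (open points), though H2-DMb1 is called there with 3 alternatives.

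Between the MLC types, ER-Hoxb8 MLCs were higher for 4 of 6 members, where 14.6% of 13511 genes were called, with a median of 2.70 beside -0.21. Ciita was 12.4-fold higher (log2FC 3.63, standard error 0.63, adjusted p = 2.54e-04), Cd74 8.99-fold (log2FC 3.17, standard error 0.51, adjusted p = 9.71e-05) and H2-Aa 7.17-fold (log2FC 2.84, standard error 0.45, adjusted p = 6.75e-05). These 3 were called in the GFPHox libraries alone (4.26, 3.02 and 2.77) and in the WTHox libraries alone (3.01, 3.32 and 2.91). Without replicates 3 and 6, rich in T cell markers, they stood at 3.01 (adjusted p = 0.00514), 2.84 (adjusted p = 0.00199) and 2.32 (adjusted p = 0.00175). H2-Ab1 was 5.92-fold higher (log2FC 2.57, standard error 0.84, adjusted p = 0.0402), a call that hung on single libraries. It was lost without BMD MLC replicate 1 (2.41), 2 (2.23), 4 (2.66) or 6 (2.62) and without ER-Hoxb8 MLC replicate 3 (2.31), 5 (2.55) or 6 (2.24). It was also lost with the GFPHox libraries alone (2.20, adjusted p = 0.189), the WTHox libraries alone (2.93, adjusted p = 0.0592) and without the libraries rich in T cell markers (1.83, adjusted p = 0.212). It was lost with no filter on low values as well (adjusted p = 0.0675). H2-DMa (log2FC 0.13) and H2-DMb1 (log2FC 1.62, adjusted p = 0.321) were not called. H2-DMb1 was called with only the compared groups in the fit (adjusted p = 0.0129), with a replicate block (adjusted p = 0.00112) and with array weights (1.82, adjusted p = 0.00380).

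Both MLC types exceeded microglia. BMD MLCs were higher for 5 of 6 members, where 19.7% of genes were called (median 3.45 beside 0.07), and ER-Hoxb8 MLCs for 6 of 6, where 32.8% were (median 6.19 beside -0.10). These comparisons share the same 9 microglia libraries. H2-Aa was 12.1-fold higher in BMD MLCs (log2FC 3.60, adjusted p = 1.81e-07) and 86.9-fold higher in ER-Hoxb8 MLCs (log2FC 6.44, adjusted p = 2.42e-12). H2-DMa was 10.7-fold higher (log2FC 3.42, adjusted p = 2.53e-07) and 11.7-fold higher (log2FC 3.55, adjusted p = 5.92e-08). Ciita had log2FC of 2.66 and 6.29, H2-Ab1 of 3.51 and 6.08, and Cd74 of 3.47 and 6.64, with the BMD value named before the ER-Hoxb8 value, all called. H2-DMb1 was called in ER-Hoxb8 MLCs (3.97, adjusted p = 0.00181) and not in BMD MLCs (2.35, adjusted p = 0.0851). Without microglia replicate 8 those values were 2.94 (adjusted p = 1.95e-08) and 1.32 (adjusted p = 0.00214), both called, and H2-Ab1 stood at 2.84 in BMD and 5.41 in ER-Hoxb8 MLCs. Without both YSWT libraries, all 6 members were called for either MLC type, with H2-DMb1 at 1.32 in BMD MLCs (adjusted p = 0.00386). With every library kept, H2-DMb1 was also called in BMD MLCs on log2(CPM + 1) (1.94), with quantile normalization (2.29) and array weights (1.35). A replicate block called it too (1.37). Replicate numbers 7 to 9 occur only in microglia, so that block in effect leaves those libraries out, replicate 8 among them.

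Genes that act upstream of Ciita differed between the MLC types in both directions. Of 15 inducers and brakes of Ciita, 5 were higher in ER-Hoxb8 MLCs, 1 was lower and 9 did not pass, with a median of 0.05. Ifng, which encodes interferon gamma, stood at 1.39, -1.03, 6.73, -1.86, -3.62 and 6.29 log2 CPM in ER-Hoxb8 MLC replicates 1 to 6 and between -3.62 and -1.68 in BMD MLCs. Replicates 3 and 6, the ones rich in T cell markers, were the highest, and replicate 5 was at the floor. Ifng (log2FC 4.14, adjusted p = 0.0178), Irf1 (2.77), Jak2 (1.41) and the brake Socs1 (5.77) were among those that were higher, and Ifngr1, a receptor chain for interferon gamma, was lower (-1.34, adjusted p = 0.00409). None of the 7 factors that sit on class II promoters, such as Rfx5, was called by limma between the MLC types, with a median of -0.27, 1977 genes called in all and 3839 at an unadjusted p below 0.05.

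Interferon-stimulated genes and MHC class I genes were higher in ER-Hoxb8 MLCs as well. Against BMD MLCs, 9 of 9 interferon-stimulated genes were higher (median 3.82), among them Isg15 (log2FC 4.95, standard error 0.39, adjusted p = 2.18e-09). Of 5 class I genes 5 were higher (median 2.26), among them H2-K1 (log2FC 2.26) and B2m (log2FC 1.97), which encodes the light chain of class I. In BMD MLCs against BMD macrophages, 4 of 9 interferon-stimulated genes were higher (median 1.39) and 0 of 5 class I genes passed in limma, where 4055 genes were called and 5566 had an unadjusted p below 0.05. Cd40 was higher in ER-Hoxb8 than in BMD MLCs (log2FC 3.53, standard error 0.52, adjusted p = 2.86e-05), while Cd86, another co-stimulatory gene, had a log2FC of 0.20 (adjusted p = 0.695). Of 8 peptide loading and turnover genes tested, 0 were higher and 2 lower, and the lysosomal protease Ctss had a log2FC of 0.55 (adjusted p = 0.164).

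The other class II genes did not move as a block. In BMD MLCs against BMD macrophages, H2-Ob (log2FC 5.17), a chain of the H2-DM inhibitor H2-O, and H2-DMb2 (2.51) were higher, and 3 of 5 did not pass. In ER-Hoxb8 MLCs against ER-Hoxb8 macrophages, H2-Ob (4.21), H2-DMb2 (2.80) and H2-Ea-ps (4.30) were higher. Between the MLC types H2-Ob was lower in ER-Hoxb8 cells (-1.50), and against microglia H2-Eb2 was lower in BMD (-3.05) and ER-Hoxb8 MLCs (-3.34). Among loading genes, BMD MLCs had more Ctss (0.92), Lgmn (1.64) and March1 (1.88) than BMD macrophages and less Ctsl (-2.08), Ctsb (-3.10) and Ctsd (-3.07).

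Markers of other antigen presenting and blood cells were present in the brain libraries. T cell markers summed to 19.2, 28.2, 147, 2.15, 5.75 and 181 CPM in ER-Hoxb8 MLC replicates 1 to 6, with Cd3g the most abundant, to between 0.515 and 8.98 in BMD MLCs and to between 0.428 and 4.90 in microglia. They were higher in ER-Hoxb8 than in BMD MLCs for 2 of 4 genes. B cell markers summed to 19.1, 8.41, 175, 23.4, 23.1 and 62.1 CPM in ER-Hoxb8 MLCs, to between 19.5 and 95.0 in BMD MLCs and to between 57.9 and 127 in microglia, where Cd79b led and Pax5 was at or below 3 counts. The B cell marker sums of microglia lay within or above the range of BMD MLCs. Dendritic cell markers summed to 45.9, 75.1, 140, 47.6, 40.2 and 308 CPM in ER-Hoxb8 MLCs, to between 80.8 and 221 in BMD MLCs and to between 23.8 and 61.2 in microglia, with Itgax leading in ER-Hoxb8 MLCs and Cd209a in BMD MLCs, where Clec9a was at or below 3 counts. Monocyte markers reached 6563 CPM in ER-Hoxb8 MLC replicate 6, against 215 to 660 in the other 5. Markers of other brain cells summed to between 98.8 and 206 CPM in ER-Hoxb8 MLCs and to between 32.8 and 107 in BMD MLCs. They summed to between 52.4 and 667 CPM in microglia and to between 25.4 and 48.9 in cultured ER-Hoxb8 macrophages. The MLCs had been sorted by CD45, CD11B and, for some, GFP. The part of these cell types in the class II values was not tested.

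The MLC libraries also differed from microglia in identity markers. Microglia markers summed to between 45343 and 74002 CPM in microglia, to between 5034 and 16736 in BMD MLCs and to between 827 and 9620 in ER-Hoxb8 MLCs. The 827 is that of ER-Hoxb8 MLC replicate 6, with the other 5 between 6028 and 9620. They were lower than in microglia for 4 of 5 genes in BMD MLCs and for 5 of 5 in ER-Hoxb8 MLCs. Border macrophage markers summed to between 2079 and 4743 CPM in BMD MLCs, to between 104 and 1508 in ER-Hoxb8 MLCs and to between 15.8 and 147 in microglia. BMD MLCs stood highest for that list. Neutrophil markers summed to 436, 137, 182, 11082, 25651 and 2335 CPM in ER-Hoxb8 MLCs and to between 2266 and 19453 in BMD MLCs. Their part in the class II values was not tested.

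Outside the members, the genes whose pattern over these 27 libraries was most like that of Ciita were Gm12250 (Pearson r 0.957), Gbp5 (0.931) and Pydc3 (0.931), besides a pair known by clone-based names only. For H2-Aa, again outside the members, they were Rnase6 (r 0.935), Ms4a4c (0.930), Gm12250 (0.920), Gbp3 (0.917) and Ms4a4b (0.910). Gm12250 was the gene on both lists. Among the members, Ciita had an r of 0.958 with Cd74, 0.914 with H2-Aa, 0.892 with H2-Ab1, 0.705 with H2-DMa and 0.704 with H2-DMb1. H2-Aa had an r of 0.961 with H2-Ab1, 0.937 with Cd74, 0.566 with H2-DMa and 0.493 with H2-DMb1. The 27 libraries fall into 5 groups, which these values pool, so they describe mainly the differences between groups.

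The Adar experiments ask what loss of the RNA editing enzyme Adar1 does to macrophages, and the level of Adar RNA did not check the label. In progenitors Adar stood at 4.36, 4.23 and 4.24 log2 CPM with sgRNA #1 and at 4.20, 3.42 and 4.28 with NTC. In macrophages it stood at 6.96, 7.15 and 7.01 with sgRNA #1 and at 5.73 and 5.67 in NTC replicates 1 and 3, with 5.86 in replicate 2 on its own scale. Adar RNA was higher, not lower, in the macrophages labelled KO (log2FC 1.34, standard error 0.21, adjusted p = 9.76e-04). With sgRNA #2 it stood at 4.35, 4.56 and 4.36 in progenitors and at 7.02, 7.00, 7.02, 7.03 and 6.99 in macrophages. Edited RNA can still be counted, so the RNA level does not show whether protein was lost.

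In these cultures most class II genes were near the floor. H2-Aa stood at -0.26, -0.53 and -0.67 log2 CPM in sgRNA #1 progenitors, at -1.13, -0.53 and -1.30 in NTC progenitors, at -3.43, -2.89 and -3.43 in sgRNA #1 macrophages and at -3.43 in NTC macrophage replicates 1 and 3. H2-Aa was at least 3.18-fold lower in NTC macrophage replicates 1 and 3 than in NTC progenitors, with 3 counts per library as the floor. With sgRNA #2, in libraries normalized apart, H2-Aa had a mean of -0.57 in macrophages and -1.21 in progenitors. Those groups overlapped, and H2-Aa was not tested in them. H2-Ab1 stood at -1.99, -0.55 and -1.55 in sgRNA #1 progenitors and at -2.13, -1.53 and -3.42 in NTC progenitors, and those groups overlapped. NTC macrophage replicate 2 stood apart at 1.70 for H2-Aa and 2.37 for H2-Ab1. H2-Eb1 was above 3 counts in none of the sgRNA #1 and NTC libraries of these cultures, and Ciita was below 0 log2 CPM in each of them. These 4 genes were not tested there.

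Cd74 and the H2-DM genes were measurable, and H2-DMb1 was higher in macrophages labelled Adar KO. H2-DMb1 stood at 6.21, 6.15 and 6.16 log2 CPM in sgRNA #1 macrophages and at 5.22 and 4.91 in NTC macrophages. In progenitors it stood at 3.76, 4.00 and 3.37 with sgRNA #1 and at 3.84, 3.59 and 3.26 with NTC. The macrophage groups did not overlap and the progenitor groups did. Of 3 members tested in macrophages 1 was higher and 0 lower, where 21.8% of 11119 genes were called, and with 3 members a share like that is not a result about them. Without NTC macrophage replicate 1 the count over all genes was 1326 in place of 2420. H2-DMb1 was 2.15-fold higher (log2FC 1.10, standard error 0.21, adjusted p = 0.00311). With NTC replicate 2 kept in it was 1.17 (adjusted p = 4.71e-04), in a fit that mixed scales, since that replicate was normalized apart. In progenitors limma called 0 of 3 members and 0.917% of genes, with 732 genes at an unadjusted p below 0.05. The effect of the guide differed between the stages by 0.96 for H2-DMb1 (standard error 0.28, adjusted p = 0.0436), 1 of 3 members where 13.6% of genes were called (1508 genes, and 1003 without NTC macrophage replicate 1). That call was lost without any of 9 of the 11 libraries: sgRNA #1 progenitor replicate 1 (0.98) or 3 (0.79), NTC progenitor replicate 1 (0.82) or 2 (0.94), sgRNA #1 macrophage replicate 1 (0.94), 2 (0.97) or 3 (0.96), and NTC macrophage replicate 1 (1.11) or 3 (0.80). It was also lost with no filter on low values, with quantile normalization (0.87) and with array weights (0.91). H2-DMb2, its near-identical neighbour, was higher with sgRNA #1 in macrophages (log2FC 1.19).

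Cd74 stood at 6.28, 5.37 and 4.75 log2 CPM in sgRNA #1 macrophages and at 6.12 and 5.95 in NTC macrophages, with overlap (log2FC -0.57, adjusted p = 0.276). Without sgRNA #1 macrophage replicate 1 it was lower (-0.98, adjusted p = 0.0246). H2-DMa stood at 2.48, 1.79 and 1.88 with sgRNA #1 and at 1.50 and 1.53 with NTC (log2FC 0.53, adjusted p = 0.366). Around these genes, 9 of 9 interferon-stimulated genes were higher with sgRNA #1 (median 5.61 beside 0.05 over all genes) and 4 of 5 class I genes were (median 1.70). Markers of other cell types differed too. In sgRNA #1 macrophages, dendritic cell markers summed to 139, 125 and 134 CPM, against 421 and 405 in NTC macrophage replicates 1 and 3, with Clec10a leading and 1 of 4 genes higher and 1 lower. Border macrophage markers summed to 264, 190 and 207 CPM, against 1114 and 936, led by Ms4a7 with sgRNA #1 and Mrc1 with NTC, and 3 of 3 genes tested were lower. Neutrophil markers, led by S100a8, summed to 69.1, 82.2 and 81.0 CPM, against 15.7 and 10.8, with 1 of 5 genes higher. Monocyte markers summed to 1419, 1036 and 617 CPM, against 1854 and 1487, and plasmacytoid dendritic cell markers, led by Bst2, to 1065, 892 and 601 CPM, against 217 and 187. The part of these markers in the class II values was not tested.

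Cd74, H2-DMa and H2-DMb1 were higher in macrophages than in progenitors, both with NTC and with sgRNA #2, in comparisons that called most genes in one direction or the other, so that such shares are not results about the members. In NTC cells Cd74 stood at 2.15, 2.13 and 1.64 log2 CPM in progenitors, and H2-DMa at -0.21, 0.75 and -0.50, each below every NTC macrophage library. NTC macrophages were higher for 3 of 3 members, where 71.5% of genes were called: Cd74 by 16.7-fold (log2FC 4.07, standard error 0.35, adjusted p = 9.68e-07), H2-DMa by 2.83-fold (log2FC 1.50, adjusted p = 0.00484) and H2-DMb1 by 2.84-fold (log2FC 1.50, adjusted p = 4.88e-05). With sgRNA #2, Cd74 stood at 1.75, 1.30 and 1.76 in progenitors and at 4.25, 4.42, 4.30, 4.14 and 4.50 in macrophages. H2-DMb1 stood at 2.10, 1.81 and 2.03 in progenitors and at 4.39, 4.28, 4.31, 4.29 and 4.50 in macrophages. Neither gene overlapped between the stages. Of 4 members tested 3 were higher, where 81.1% of 10776 genes were called: Cd74 (log2FC 2.72, adjusted p = 2.35e-08), H2-DMb1 (log2FC 2.37, adjusted p = 7.79e-09) and H2-DMa (log2FC 1.00, adjusted p = 0.00948). H2-DMa lost the call with quantile normalization (0.45, adjusted p = 0.175) and with a replicate block (0.79, adjusted p = 0.0516). H2-Ab1 stood at 0.17, -0.34 and -0.80 in sgRNA #2 progenitors and at -0.05, -0.63, 0.10, 0.20 and 0.03 in macrophages, with overlap (log2FC 0.26, adjusted p = 0.447). Markers of other cell types differed between the stages as well. Neutrophil markers, led by Mpo in progenitors, summed to 25147, 19127 and 16852 CPM in NTC progenitors and to 15.7 and 10.8 in NTC macrophages, and to 2609, 2310 and 2837 in sgRNA #2 progenitors and 20.4 to 26.4 in sgRNA #2 macrophages. Dendritic cell markers, led by Clec10a, summed to 22.3, 35.2 and 34.2 CPM in NTC progenitors and to 421 and 405 in macrophages, and to 88.2, 111 and 119 and 70.6 to 97.1 with sgRNA #2. Monocyte markers summed to 1184, 1098 and 1163 CPM in sgRNA #2 progenitors and to 163 to 200 in macrophages. Their part in the class II values was not tested. No NTC library was normalized with the sgRNA #2 libraries, so the effect of that guide was not tested.

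The baricitinib series asks what blocking JAK signalling does to macrophages labelled Adar KO. Adar stood at 5.12, 4.94 and 4.69 log2 CPM in NTC macrophages and at 7.42, 6.52 and 6.37 in Adar KO macrophages without the drug. At 0.0006 uM it stood at 4.66, 5.04 and 4.81 in NTC and 5.90, 5.94 and 6.21 in Adar KO, and at 0.016 uM at 4.31, 4.58, 4.40 and 4.34 and at 6.25, 5.90 and 6.37. At 0.4 uM it stood at 4.50, 4.22, 4.29 and 3.92 in NTC and 4.12, 7.38 and 4.21 in Adar KO, and at 10 uM at 3.70, 3.64 and 3.22 and at 1.55, 2.15, 2.91 and 2.03. Adar RNA was thus higher in cells labelled Adar KO without the drug (log2FC 1.85, adjusted p = 0.00513) and lower at 10 uM (-1.36, adjusted p = 0.0148). At 0.4 uM replicate 2 stood apart from its fellows.

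H2-Ab1 was at or below 3 counts in all 33 libraries, H2-Eb1 too, and H2-Aa was above 3 counts in 1. Ciita was above 3 counts in 11. These 4 genes were not tested, and the 3 members that were are described by dose.

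Cd74 crossed over with dose. Without the drug it stood at 5.56, 5.87 and 5.89 log2 CPM in NTC and at 4.71, 5.21 and 5.41 in Adar KO macrophages, with every Adar KO library lower. At 0.0006 uM it stood at 5.81, 5.66 and 5.70 in NTC and at 5.10, 5.91 and 5.56 in Adar KO. At 0.016 uM the values were 6.17, 5.82, 5.80 and 6.01 in NTC and 5.98, 6.37 and 5.54 in Adar KO, and the groups overlapped at both of these doses. At 0.4 uM the values were 6.25, 6.13, 6.14 and 6.37 in NTC and 7.27, 8.20 and 7.10 in Adar KO. At 10 uM they were 6.35, 6.59 and 6.21 in NTC and 7.11, 7.77, 7.74 and 7.45 in Adar KO. At the highest pair of doses every Adar KO library lay above every NTC library.

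The tests followed those values. Without the drug Cd74 was 1.59-fold lower in Adar KO macrophages (log2FC -0.67, standard error 0.24, adjusted p = 0.0412), at 0.4 uM 2.46-fold higher (log2FC 1.30, standard error 0.22, adjusted p = 2.08e-04) and at 10 uM 2.20-fold higher (log2FC 1.14, standard error 0.22, adjusted p = 1.53e-04). The call without the drug was lost without NTC replicate 2 (-0.62) or 3 (-0.61), without Adar KO replicate 1 (-0.46, adjusted p = 0.226) or 2 (-0.72) and with no filter on low values. Within Adar KO macrophages, Cd74 was 5.30-fold higher at 10 uM than at 0 uM (log2FC 2.41, standard error 0.22, adjusted p = 3.72e-10). It was the 1 member of 3 called there, where 65.0% of 11339 genes were. Within NTC macrophages limma called 0 of 3 members between those doses, where 13.6% of genes were called and 3192 had an unadjusted p below 0.05. Cd74 had a log2FC of 0.60 there (adjusted p = 0.0923) and was called with only the compared groups in the fit and with array weights (0.52). The effect of the label differed between 10 and 0 uM by 1.80 for Cd74 (standard error 0.33, adjusted p = 1.04e-04), 1 of 3 members where 38.8% of genes were called.

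H2-DMb1 was higher in Adar KO macrophages at each dose. Without the drug it stood at 5.02, 4.96 and 4.79 log2 CPM in NTC and at 5.19, 5.82 and 5.88 in Adar KO, and at 0.0006 uM at 4.93, 4.82 and 4.67 and at 5.79, 5.96 and 5.86. At 0.016 uM it stood at 4.64, 4.49, 4.80 and 4.90 in NTC and 6.07, 6.13 and 5.76 in Adar KO, and at 0.4 uM at 4.81, 4.59, 4.41 and 4.67 and at 5.86, 6.20 and 5.98. At 10 uM it stood at 4.52, 4.51 and 4.77 in NTC and at 5.48, 5.36, 5.57 and 5.57 in Adar KO. The groups did not overlap at any of the 5 doses. The log2FC was 0.71 without the drug (adjusted p = 9.42e-04), 1.06 at 0.0006 uM (adjusted p = 4.73e-06), 1.28 at 0.016 uM (adjusted p = 7.08e-08), 1.39 at 0.4 uM (adjusted p = 8.85e-08) and 0.89 at 10 uM (adjusted p = 8.85e-06). The effect did not differ between 10 and 0 uM by the test of that difference (0.19, adjusted p = 0.505). H2-DMb2 was higher by 0.96, 1.47, 1.32, 1.34 and 0.78 at the rising doses.

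H2-DMa was called at 0.016 and 0.4 uM, and not at 0 uM (log2FC -0.17), 0.0006 uM (-0.06) or 10 uM (0.30). It stood at 2.16, 2.45, 2.29 and 2.94 log2 CPM in NTC and 3.34, 3.33 and 2.91 in Adar KO macrophages at 0.016 uM, and at 3.03, 2.67, 2.21 and 2.87 and 3.62, 3.38 and 3.88 at 0.4 uM. The groups overlapped at 0.016 uM and not at 0.4 uM. The log2FC was 0.74 at 0.016 uM (adjusted p = 0.0121) and 0.93 at 0.4 uM (adjusted p = 0.00647). At 0.016 uM the call was lost without Adar KO replicate 1 (0.66) or 2 (0.67), and at 0.4 uM with only the compared groups in the fit (adjusted p = 0.104). Without Adar KO replicate 2 at 0.4 uM, the library with high Isg15, Cd74 gave 0.96 (adjusted p = 0.00419), H2-DMa 1.06 (adjusted p = 0.00765) and H2-DMb1 1.30 (adjusted p = 1.83e-06). Between 10 and 0 uM in Adar KO macrophages, H2-DMa was called without replicate 3 of 0 uM (0.56, adjusted p = 0.0458) and H2-DMb1 without replicate 1 of 0 uM (-0.36, adjusted p = 0.0238).

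In counts, 1 of the 3 members tested was higher and 1 lower in Adar KO macrophages without the drug, where 24.9% of 11339 genes were called. At 0.0006 uM 1 was higher, where 28.6% of genes were called, at 0.016 uM 2 were, where 31.8% were, at 0.4 uM 3 were, where 13.3% were, and at 10 uM 2 were, where 44.5% were. With 3 members, shares like these are not set apart from the background.

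**Figure D4:**
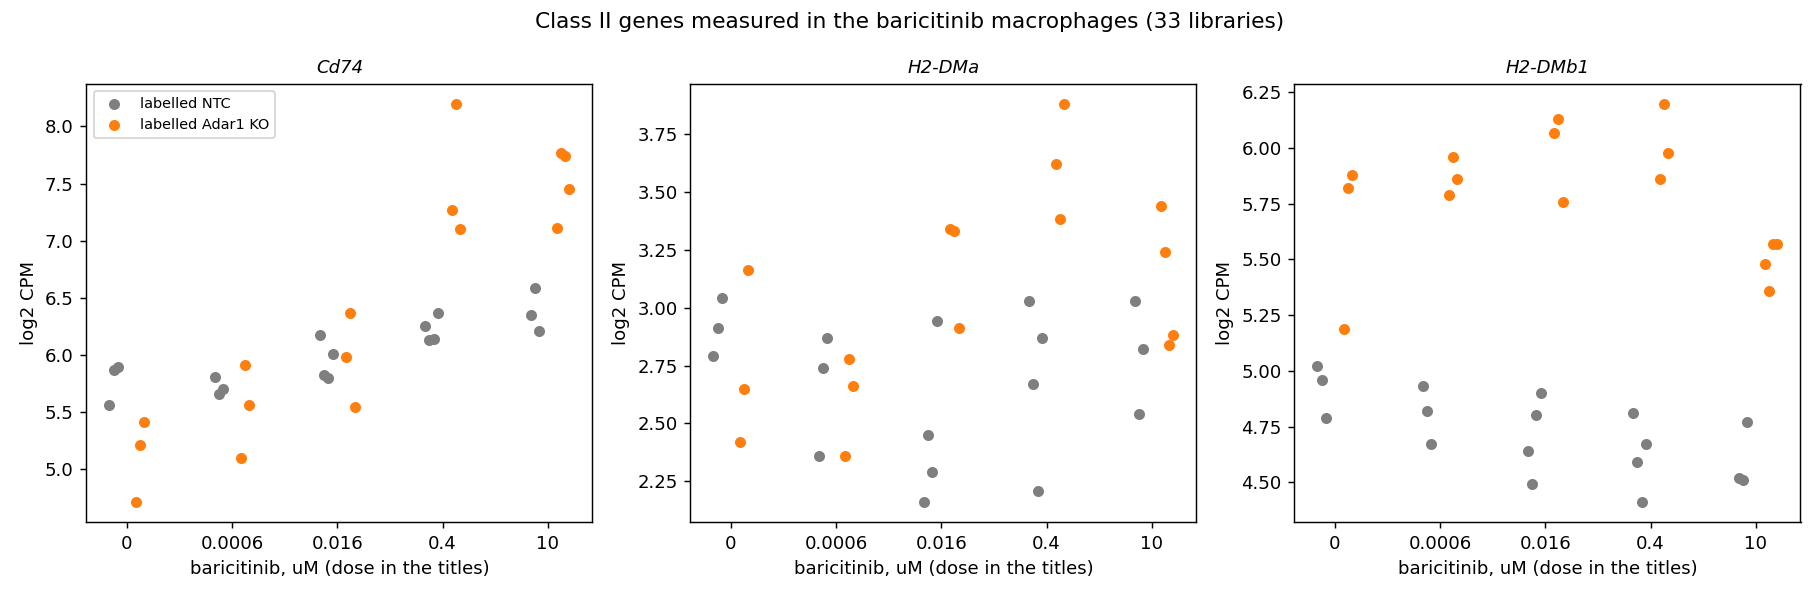
Values of Cd74, H2-DMa and H2-DMb1 in log2 CPM (vertical axis) by labelled baricitinib dose in uM (horizontal axis), with NTC macrophages in grey and macrophages labelled Adar KO in orange, a point for each of 33 libraries. H2-DMb1 is higher in orange at every dose, and Cd74 in orange goes from below grey at 0 uM to above it at 0.4 and 10 uM.

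Interferon-stimulated genes were higher in Adar KO macrophages for 9 of 9 genes without the drug (median 5.60), 8 of 9 at 0.0006 uM (5.44), 9 of 9 at 0.016 uM (7.52) and 9 of 9 at 0.4 uM (4.39). At 10 uM limma called 0 of 9 (median 0.45), where it called 5044 genes in all and 5779 had an unadjusted p below 0.05. Within Adar KO macrophages 8 of 9 were lower at 10 than at 0 uM (median -9.21). Irf1 was lower as well (log2FC -2.28), as were 4 of 5 class I genes (median -3.26) and 6 of 8 loading genes, among them Ctss (-1.21) and Ctsd (-4.39). In that comparison 65.0% of 11339 genes were called, so the counts alone are not results about these lists. Isg15 at 0.4 uM stood at 1.80, 10.58 and 3.37 in Adar KO replicates 1 to 3. T and B cell markers were not tested in these libraries, and Cd3e, Trac and Pax5 were at or below 3 counts in each of them. Monocyte markers summed to 1106, 1396 and 1298 CPM in NTC and to a median of 653 and a highest of 689 in the 3 Adar KO libraries at 0 uM, to 1555, 1720, 1795 and 1667 in NTC and 2411, 1877 and 2024 in Adar KO at 0.4 uM, and to 2315, 2161 and 2086 in NTC and 2290, 1711, 2174 and 2135 in Adar KO at 10 uM. Adar KO macrophages were below NTC for this sum at 0 uM, where Cd74 was lower too, and above it at 0.4 uM, and the groups overlapped at 10 uM. Of 3 monocyte markers, 2 were lower and 1 higher in Adar KO at 0 uM, and the most abundant was F13a1 in NTC and Ly6c2 in Adar KO. Dendritic cell markers summed to 255, 241 and 267 CPM in NTC and 64.1, 82.1 and 76.3 in Adar KO at 0 uM, and to 62.7, 53.8 and 88.7 in NTC and 38.7, 30.9, 28.9 and 35.7 in Adar KO at 10 uM, with Clec10a leading and Clec9a and Cd209a at or below 3 counts. Of 4 dendritic markers tested 1 was lower and 0 higher in Adar KO at 0 uM in limma. Border macrophage markers, led by Ms4a7, summed to 117, 91.6 and 111 CPM in NTC and 225, 218 and 234 in Adar KO at 0 uM, a difference opposite to that with sgRNA #1 in the first experiment. Of 5 genes tested there 2 were higher and 3 lower. At 0.4 uM they summed to 49.5, 149 and 47.1 CPM in Adar KO, against 75.1 to 90.3 in NTC. Plasmacytoid dendritic cell markers, led by Bst2, summed to 142, 140 and 139 CPM in NTC and 554, 584 and 492 in Adar KO at 0 uM. At 0.4 uM they summed to 112, 1210 and 139 CPM in Adar KO, led by Bst2, against 104 to 122 in NTC, led by Tcf4. Neutrophil markers, led by S100a8, summed to 245, 76.3 and 325 CPM in Adar KO at 0.4 uM, against 52.8 to 94.1 in NTC. Progenitor markers, led by Cd34, summed to 10.8, 12.3, 12.1 and 14.3 CPM in Adar KO at 10 uM, against 1.81, 1.51 and 1.45 in NTC. The part of these markers in the Cd74 values was not tested. The summed T cell markers reached at most 1.46 CPM, and the summed B cell markers at most 0.592 CPM.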

How the data were processed

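According to the authors, reads were assigned with kallisto 0.46.0 and summed to genes with tximport. The authors deposited TMM-normalized log2 CPM from edgeR, and those deposited log2 CPM were used unchanged. All 92 libraries were read, and 1 of 29957 entries, which has no gene name, was left out. Libraries sharing a lowest value form 6 normalization sets, and the main tests stay within a set. Counts and depths were estimated from the values with a prior count of 2 and cover counting error only.

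Each set was fitted with limma 3.58.1 in R 4.3.3, with a mean for each group, eBayes with trend and Benjamini-Hochberg adjustment over all genes above 1 CPM in at least 3 libraries of the fit. NTC macrophage replicate 2, alone in its set, was left out, except in an alternative that kept it and so mixed scales. The members and gene lists were chosen with earlier results of these data known, and the pairs of letters in promoters with the sequences in view. Named genes are the members, genes of those lists, and the nearest patterns by Pearson correlation. Same-numbered replicates were checked as pairs. After removal of group means each pair correlated above 0.1 for ER-Hoxb8 day 4 cells with progenitors (r of 0.23, 0.37 and 0.43), sgRNA #1 with NTC progenitors (0.34, 0.16 and 0.22) and the 2 pairs of sgRNA #1 with NTC macrophages (0.15 and 0.15), and in no other comparison. Alternatives were a log2FC minimum of 2, only the compared groups in the fit, no filter or a stricter one, log2(CPM + 1), quantile normalization, a replicate block, array weights, leaving out each library in turn, the GFPHox or WTHox libraries alone, and no YSWT libraries. A replicate block in effect leaves out a library whose replicate number occurs in no other library of its set. These were microglia replicates 7 to 9 and sgRNA #2 macrophage replicates 4 and 5. Leaving out the libraries rich in T cell markers was added after the data were seen. The procedure was tested on simulated data. Tables were made with Python 3.11.15.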

Additional observations from a re-analysis of the deposited data

Results flagged for a closer look

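In groups of 4 to 10 libraries, 49 pairs of a member and a group were looked at for a library far from the rest, and 6 had one. By the design of the rule, which takes Dixon's critical value, chance alone sets apart about 1 in 20 groups, a rate that does not hold for groups tied at the floor, where any single count stands apart. Microglia replicate 8 was the lowest for 3 members: H2-Ab1 at -0.17 log2 CPM, with the others between 5.06 and 6.42, Cd74 at 4.66, with the others between 7.59 and 9.09, and H2-DMb1 at -3.62, with the others between 4.64 and 6.21. The remaining 3 are single high values within a few counts of the floor. H2-Eb1 stood at -0.96 in microglia replicate 2, where the others were at -3.62, and at -1.46 in sgRNA #2 macrophage replicate 1, where the others were at -3.56. H2-Aa stood at -2.37 in replicate 3 of the macrophages labelled Adar KO at 10 uM, where the others were at -2.78.

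For 6 results the effect of a contrast differed between groups by a test of the difference itself. The change from culture to brain was larger in ER-Hoxb8 than in BMD cells by 7.47 for H2-Aa (12.41 against 4.94), by 8.07 for H2-Ab1 (13.08 against 5.01), by 4.28 for Cd74 (8.95 against 4.67) and by 4.82 for Ciita (8.28 against 3.46). The effect of sgRNA #1 on H2-DMb1 was larger in macrophages than in progenitors by 0.96 (1.10 against 0.15). The effect of the Adar KO label on Cd74 was larger at 10 than at 0 uM of baricitinib by 1.80 (1.14 against -0.67).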

How the results depend on the processing

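Of 100 member values tested, 55 were past the test, and all 55 kept their sign in every alternative run. Of these, 34 stayed past the test in every alternative, and 45 did when the fold minimum is set aside. Of the 45 not past the test, 12 were past it in at least 1 alternative. Values not past the test changed sign in some alternatives, such as Cd74 in day 4 cells against progenitors, from -1.58 to 1.24.

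Counts of members past the test that moved by over 1.5 times are these, and smaller moves are not listed by setting. With a log2FC of at least 2 the count was 0 for BM monocytes against BM progenitors, sgRNA #1 against NTC macrophages, the sgRNA #1 effect in macrophages against progenitors, the Adar KO label at each of the 5 doses and the label effect at 10 against 0 uM, and 1 for NTC macrophages against progenitors. A fold minimum by its construction can only lower a count. With only the compared groups in the fit it was 2 for BM monocytes and 1 for NTC macrophages at 10 against 0 uM. With quantile normalization it was 2 for BM monocytes and 0 for the sgRNA #1 effect between stages. With array weights it was 2, 0 and, for NTC macrophages at 10 against 0 uM, 1. With no filter on low values it was 0 for the effect between stages and 1 for the label at 0 uM, with more genes in the adjustment. On log2(CPM + 1) it was 1 for ER-Hoxb8 against BMD macrophages. The cause of the other moves was not tested. Over all comparisons a replicate block lost 1 call and gained 5, and array weights lost 1 and gained 8.

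With 1 library left out, counts ran from 0 to 0 for BM monocytes (1 with all libraries), from 0 to 1 for day 4 cells and for the effect between stages, and from 1 to 2 for ER-Hoxb8 against BMD macrophages, sgRNA #1 macrophages, the label at 0 and 0.016 uM, and Adar KO macrophages at 10 against 0 uM. They ran from 3 to 4 for ER-Hoxb8 against BM progenitors and against BMD MLCs, from 4 to 5 for ER-Hoxb8 MLCs against macrophages and from 5 to 6 for BMD MLCs against microglia, and did not move in the other comparisons.

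Counts over all genes moved more, and those beyond 1.5 times follow. The fold minimum lowered all of them by over that factor except for day 4 cells, ER-Hoxb8 against BMD macrophages and the difference between the rises in brain. Apart from it, counts ran from 601 to 5229 for BM monocytes (1668), from 1 to 1333 for day 4 cells (0), from 1938 to 2007 for ER-Hoxb8 against BM progenitors (3106), from 175 to 2380 for ER-Hoxb8 against BMD macrophages (309), from 252 to 2965 for the difference between the rises (442), from 2575 to 8372 for BMD MLCs against macrophages (4055), from 41 to 67 for sgRNA #1 progenitors (102), from 228 to 2769 for the label at 0.4 uM (1503) and from 661 to 3570 for NTC macrophages at 10 against 0 uM (1540). A single alternative moved BMD MLCs against microglia to 5335 (2665) and the label at 0 uM to 4422 (2829), both with array weights, and sgRNA #1 macrophages to 1326 (2420) and the effect between stages to 1003 (1508), both without NTC macrophage replicate 1. Quantile normalization moved the share of called genes that were higher from 44.1% to 55.0% for ER-Hoxb8 against BM progenitors, from 66.4% to 48.7% for sgRNA #1 macrophages, from 72.5% to 57.2% for the effect between stages and from 56.6% to 46.1% for the label at 0.4 uM. It moved the median of all genes from -0.21 to -0.03 between the MLC types, from 0.07 to -0.04 for BMD MLCs against microglia, from -0.08 to 0.05 for ER-Hoxb8 against BM progenitors, from 0.05 to -0.08 for sgRNA #1 macrophages and from 0.08 to -0.06 for the effect between stages. Values within a few counts of the floor are imprecise at these depths. They include H2-Eb1 in most libraries and the I-A chains in the baricitinib libraries, sgRNA #1 macrophages and NTC macrophage replicates 1 and 3.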
